A study of Mus musculus with 6 samples.

Results

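The ERBB receptors, their ligands and the inhibitors that act on the receptors were followed as 10 genes, taken by symbol from the 50763 gene symbols of the count table. They comprised the 4 receptor genes Egfr, Erbb2, Erbb3 and Erbb4, the ligand genes Hbegf, Areg, Tgfa and Nrg1, and the negative regulators Errfi1 and Lrig1. All 10 were found. RNA had been sequenced in bulk from mouse bone marrow CD34-KSL cells, a sorted fraction that is lineage-negative, positive for c-Kit and Sca-1, negative for CD34 and enriched for haematopoietic stem cells. Every mouse carried Tal1-tTA, a transcriptional activator that doxycycline blocks and that is driven from control elements of Tal1, a gene of blood stem and progenitor cells, together with TRE-EGFR-tr, the transgene that it switches on. EGFR-DN mice had no doxycycline so that, beside their own epidermal growth factor receptor, they made a receptor lacking the cytoplasmic kinase domain (3 libraries). EGFR-WT mice received doxycycline at 0.2 g/L in drinking water and made only the wild-type receptor (3 libraries). The drug therefore separated the groups in every library, and its own effect and that of the transgene cannot be told apart.

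ERBB receptors are tyrosine kinases of the cell surface that pair when a ligand binds. EGFR binds EGF, TGF-alpha, amphiregulin, heparin-binding EGF, betacellulin, epiregulin and epigen. ERBB3 and ERBB4 bind neuregulins, ERBB2 has no known ligand of its own and serves as a partner, and ERBB3 has little kinase activity and depends on that partner. A receptor that lacks its kinase domain can still bind ligand and pair, and acts as a dominant negative. The ligands are made as membrane-bound precursors that metalloproteases of the ADAM family release. ERRFI1 (also called MIG6) binds the EGFR kinase domain and blocks it, whereas LRIG1 is a transmembrane protein that promotes loss of ERBB receptors from the cell surface. In marrow, EGF signalling has been studied mainly for stem cell recovery after irradiation.

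The libraries held 24073133 to 36032428 counts each. Replicate 3 of EGFR-DN differed from the rest, with 25.4% of its counts in 8 rRNA-like genes against 4.71% to 6.15% in the other 5 libraries. Its ribosomal protein genes held 0.910% of counts, against 2.50% to 2.71% in the other 5. Values are given with and without EGFR-DN replicate 3 where this matters. The sorted cell type was present by its markers. Kit, the gene of c-Kit, was at 736, 806 and 1962 counts per 10⁶ counts (CPM) in EGFR-DN replicates 1 to 3 and 771 to 806 CPM in EGFR-WT. Ly6a, the gene of Sca-1, was at 46.7 to 70.7 CPM in EGFR-DN and 50.8 to 78.4 CPM in EGFR-WT. Cd34 transcript, whose protein the sort excluded, was at 378 to 569 CPM in EGFR-DN and 318 to 410 CPM in EGFR-WT. Procr, a surface marker of stem cells, was at 15.1 to 32.4 CPM in EGFR-DN and 43.0 to 74.9 CPM in EGFR-WT, without overlap. Flt3, a receptor gene of multipotent progenitors, was at 169 to 224 CPM in EGFR-DN and 99.1 to 123 CPM in EGFR-WT, also without overlap. Among the marker lists of other cells, the summed level did not overlap between groups for 5 of 10 lists. All 5 sums were higher in EGFR-DN. Single genes did not overlap in 17.9% of those tested, and no marker gene tested passed by edgeR. The sum of 6 B cell genes was at 43.8 to 61.0 CPM in EGFR-DN against 34.7 to 43.5 CPM in EGFR-WT. Its largest part, Cd79b, overlapped, at 21.4 to 39.6 against 26.0 to 31.5 CPM. For 7 T and NK cell genes the sum was at 162 to 257.5 against 113.6 to 159 CPM. Most of the T and NK sum was Nkg7 alone, at 150 to 226 against 98.9 to 145 CPM. Of the defining T cell genes, Cd3d and Cd3e were under 0.5 CPM in every library, and Cd3g was at most 0.868 CPM. The sums were 173 to 252 against 124 to 154 CPM for 8 neutrophil genes and 26.0 to 49.4 against 19.9 to 23.5 CPM for 6 monocyte and macrophage genes. The largest parts of the neutrophil sum, Ctsg, Prtn3 and Elane, each overlapped, and of the 8 genes S100a8 alone did not. EGFR-DN replicate 3 was the lowest library for Ctsg, at 15.6 CPM against 34.7 to 52.5 CPM in EGFR-WT. It was the highest for Elane, at 95.2 CPM against 11.2 to 21.2 CPM in EGFR-WT. The 8 stromal and osteoblast genes summed to 64.7 to 81.5 against 36.9 to 56.8 CPM, most of it from Pdgfrb alone at 51.9 to 59.4 against 21.1 to 31.0 CPM, with Bglap at 0 in all libraries. The part of these cells in the ERBB values was not tested.

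The 250 bases before the annotated start of Egfr, Erbb2 and Lrig1 are shown. Egfr and Erbb2 transcripts were close to absent in EGFR-WT, and Lrig1 was detected in every library. The Egfr window is that of the native gene and not the TRE of the transgene. From which of them the few Egfr counts in EGFR-WT came was not tested. The windows come from RefSeq on build GRCm38.p6 and are written 5′ to 3′ on the strand of the gene. Capitals mark the GC box GGGCGG on either strand, and the other motif searched, TATAAA on either strand, had no match in these 3 windows. The motifs share no bases in these windows.
Egfr, chr11:16751953-16752202, plus strand: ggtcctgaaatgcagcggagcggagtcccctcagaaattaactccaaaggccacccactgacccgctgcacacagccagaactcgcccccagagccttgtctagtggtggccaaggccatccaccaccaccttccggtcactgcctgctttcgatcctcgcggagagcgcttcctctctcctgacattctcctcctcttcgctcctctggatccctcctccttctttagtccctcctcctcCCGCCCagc
Erbb2, chr11:98412234-98412483, plus strand: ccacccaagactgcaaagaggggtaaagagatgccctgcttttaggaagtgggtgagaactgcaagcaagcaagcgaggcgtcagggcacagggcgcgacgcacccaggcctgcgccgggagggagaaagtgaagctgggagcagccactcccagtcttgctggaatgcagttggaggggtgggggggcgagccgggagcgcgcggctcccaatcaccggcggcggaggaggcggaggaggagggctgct
Lrig1, chr6:94700146-94700395, minus strand: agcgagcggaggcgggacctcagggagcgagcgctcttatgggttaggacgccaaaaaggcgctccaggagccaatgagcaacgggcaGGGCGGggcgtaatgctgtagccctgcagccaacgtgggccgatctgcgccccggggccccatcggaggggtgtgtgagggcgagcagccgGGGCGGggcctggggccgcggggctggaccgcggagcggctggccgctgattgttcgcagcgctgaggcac

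The Egfr window was 60.8% G and C, with 11 CpG dinucleotides and 1 GC box. The Erbb2 window was 66.0% G and C, with 16 CpG and no GC box, and the Lrig1 window was 71.6% G and C, with 26 CpG and 2 GC boxes. Over the 32851 promoter windows of the same table the median was 52.4% G and C and 6 CpG. A GC box was present in 32.7% of windows and TATAAA in 12.4%. Promoter entries were found for 7 of the 10 genes.

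Egfr rose in EGFR-DN. It had 4022, 4758 and 991 counts in EGFR-DN replicates 1 to 3, against 6 counts in each EGFR-WT library. Scaled by the trimmed mean of M-values (TMM), these were 117, 135 and 50.3 CPM in EGFR-DN and 0.191, 0.160 and 0.237 CPM in EGFR-WT. The groups were far apart, and EGFR-DN replicate 3 was the lowest of its group. The log2 fold change was 9.01 (SE 0.53, 95% interval 7.76 to 10.25, edgeR adjusted p = 0.00981), and all 3 EGFR-DN libraries lay above all 3 EGFR-WT libraries. Of 19313 genes tested, Egfr was the 1 gene past an adjusted p of 0.05, or 0.00518%. This call was lost without EGFR-WT replicate 1, 2 or 3 (edgeR adjusted p = 0.286, 0.261 and 0.229), with log2 fold changes of 8.99, 8.86 and 9.14. The counts do not separate transgene from native Egfr transcripts.

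The spread of Egfr inside EGFR-DN was large. Replicates 1 and 2 were 2.33 and 2.69 times replicate 3 in TMM-scaled CPM. Leaving the 8 rRNA-like genes out of the totals gave 129, 146 and 55.2 CPM in EGFR-DN replicates 1 to 3, against 0.213, 0.175 and 0.260 CPM in EGFR-WT, so replicate 3 was also lowest on that scale. Relative to Tal1, a blood stem cell transcription factor whose control region drives the activator, Egfr had 1.69, 1.88 and 0.578 counts per Tal1 count in EGFR-DN, against 0.00213, 0.00186 and 0.00285 in EGFR-WT. Replicates 1 and 2 were 2.93 and 3.24 times replicate 3 by this ratio. The log2 difference of the ratio between the groups was 8.98, with a two-sided exact permutation p of 0.1, the smallest that 3 against 3 libraries allow. Tal1 itself was at 69.2, 71.9 and 86.9 CPM in EGFR-DN and 89.6, 86.0 and 83.0 CPM in EGFR-WT (log2 fold change −0.18, SE 0.15, edgeR adjusted p = 0.707), and the groups overlapped. Of the 20 alternatives, Tal1 passed only with DESeq2 and EGFR-DN replicate 3 left out (−0.29, DESeq2 adjusted p = 0.00901). That fit was added after seeing the data, and 5.29% of all genes passed in it. Egfros, annotated on the strand opposite Egfr and looked at because the kit does not mark strand, had 0 counts in all 6 libraries.

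**Figure D1:**
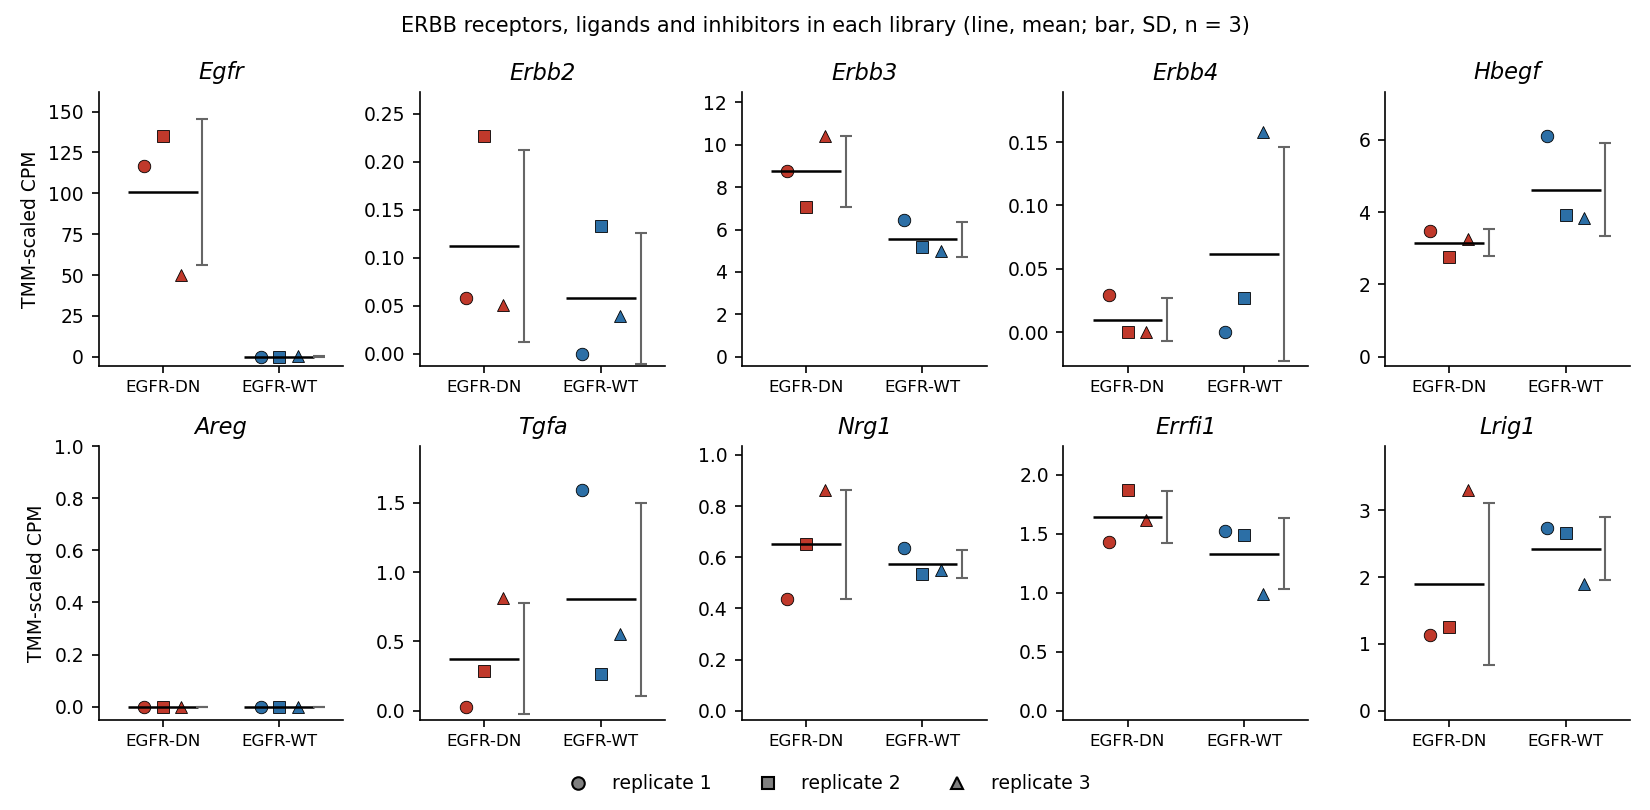
TMM-scaled CPM of the 10 ERBB genes in each library, with EGFR-DN on the left and EGFR-WT on the right of each panel; lines are means, bars are SD (n = 3) and each panel has its own scale. Egfr is at 50.3 to 135 CPM in EGFR-DN against at most 0.237 CPM in EGFR-WT, Erbb3 and Hbegf do not overlap between groups, and Areg is at 0 throughout.

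Erbb3, the neuregulin receptor with little kinase activity, was the main ERBB receptor transcript in EGFR-WT. It had 300, 249 and 206 counts in EGFR-DN and 203, 194 and 126 counts in EGFR-WT, or 8.75, 7.06 and 10.4 CPM against 6.45, 5.17 and 4.97 CPM. The lowest EGFR-DN library, at 7.06 CPM, was above the highest EGFR-WT library, at 6.45 CPM. Its log2 fold change was 0.66 (SE 0.23, 95% interval 0.11 to 1.21), and it did not pass over all genes (edgeR adjusted p = 0.690, unadjusted p = 0.0256). Without EGFR-DN replicate 3 the log2 fold change was 0.51, and over 20 alternatives it lay between 0.51 and 0.78, with an adjusted p from 0.200 to 0.912. In bulk samples, fewer cells with a transcript and less of it per cell cannot be told apart.

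Erbb2 and Erbb4 were close to the limit of detection. Erbb2, the shared partner receptor, had 2, 8 and 1 counts in EGFR-DN and 0, 5 and 1 counts in EGFR-WT. Summed over each group this was 0.120 CPM in EGFR-DN (95% Poisson interval 0.0601 to 0.215) and 0.0663 CPM in EGFR-WT (0.0243 to 0.144), and the intervals overlapped. Erbb4, the other neuregulin receptor, had 1, 0 and 0 counts in EGFR-DN and 0, 1 and 4 counts in EGFR-WT. A limit of 3 counts over a group corresponds to 0.0328 CPM in EGFR-DN and 0.0332 CPM in EGFR-WT. Neither gene had enough counts to be tested, and a difference between groups was not detectable at this depth.

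The make-up of the receptor transcripts therefore differed between the groups. Levels of different genes were compared per length, as CPM per kilobase (kb) of the longest transcript. Egfr made up 88.7%, 91.6% and 73.8% of ERBB receptor transcripts in EGFR-DN replicates 1 to 3, against 1.71%, 1.73% and 2.66% in EGFR-WT. Erbb3 made up 11.2%, 8.13% and 26.0% in EGFR-DN, against 98.3%, 95.1% and 94.9% in EGFR-WT. These shares count the 10208 bases of the longest native Egfr transcript, and the length of the transgene transcript was not used here. By median transcript length the mean Egfr share was 98.7% in EGFR-DN and 22.2% in EGFR-WT, where the longest gave 84.7% in EGFR-DN and 2.04% in EGFR-WT. By raw counts, without length, Egfr took 82.7% of receptor counts in EGFR-DN replicate 3 (95% Wilson interval 80.5% to 84.8%) and 2.91% in EGFR-WT replicate 2 (1.34% to 6.21%). The EGFR-DN replicate with the least Egfr thus had the largest Erbb3 share of its group.

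**Figure D2:**
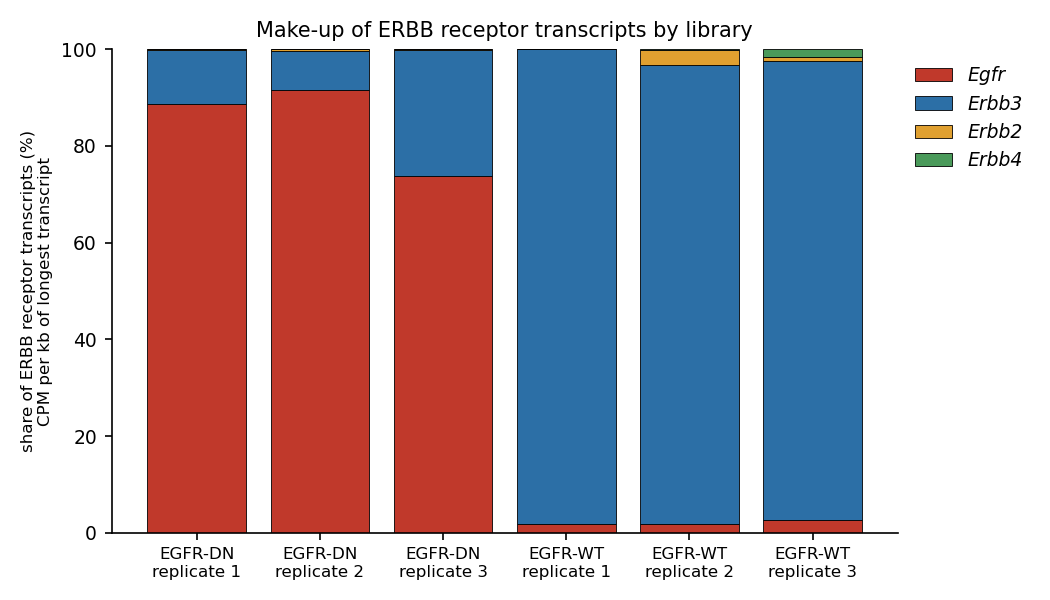
Stacked bars give the share of each receptor gene in the summed level of Egfr, Erbb2, Erbb3 and Erbb4, in CPM per kb of longest transcript, for the 3 EGFR-DN libraries on the left and the 3 EGFR-WT libraries on the right. Egfr holds 73.8% to 91.6% in EGFR-DN, and Erbb3 holds 94.9% to 98.3% in EGFR-WT.

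Of the ligands among the 10 genes, Hbegf was the most abundant per length. Hbegf, which encodes heparin-binding EGF, a ligand of EGFR and ERBB4, had 119, 97 and 64 counts in EGFR-DN and 192, 147 and 97 counts in EGFR-WT. This was 3.47, 2.75 and 3.25 CPM in EGFR-DN against 6.10, 3.92 and 3.83 CPM in EGFR-WT, so every EGFR-DN library lay below every EGFR-WT library. The log2 fold change was −0.55 (SE 0.28, 95% interval −1.22 to 0.12), which did not pass (edgeR adjusted p = 0.690). The EGFR-WT mean rested in part on replicate 1, and without that library the log2 fold change was −0.31.

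Tgfa, which encodes the EGFR ligand TGF-alpha, was low and uneven. It had 1, 10 and 16 counts in EGFR-DN and 50, 10 and 14 counts in EGFR-WT, or 0.0292, 0.284 and 0.811 CPM against 1.59, 0.266 and 0.552 CPM. The groups overlapped, with both the lowest and the highest value in a replicate 1. The log2 fold change was −1.18 (SE 1.04, edgeR adjusted p = 0.715), −0.20 without EGFR-WT replicate 1 and −2.32 without EGFR-DN replicate 3. Nrg1, a neuregulin that binds ERBB3 and ERBB4, had 15, 23 and 17 counts in EGFR-DN and 20, 20 and 14 counts in EGFR-WT. Its log2 fold change was 0.16 (SE 0.41, 95% interval −0.80 to 1.13, edgeR adjusted p = 0.869), and −0.08 without EGFR-DN replicate 3. Areg, which encodes the EGFR ligand amphiregulin, had 0 counts in all 6 libraries, below the limit of 3 counts over a group.

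The other 7 ERBB ligand genes were read as a list, and 4 of them were abundant enough to test. None of the 4 passed by edgeR or DESeq2, and an unadjusted edgeR p under 0.05 was found for Btc alone, against 6.69% of all genes tested. Btc, which encodes betacellulin, a ligand of EGFR and ERBB4, was at 3.76, 4.88 and 3.19 CPM in EGFR-DN and 8.74, 6.69 and 4.57 CPM in EGFR-WT. Its groups overlapped at the edge (log2 fold change −0.75, SE 0.31, edgeR adjusted p = 0.690). Nrg2, another neuregulin, was at 3.97, 4.11 and 2.28 CPM in EGFR-DN and 1.18, 2.58 and 1.89 CPM in EGFR-WT, with 1 EGFR-DN library inside the EGFR-WT range (0.88, SE 0.39, adjusted p = 0.690). Egf itself was at 1.78, 1.62 and 2.99 CPM in EGFR-DN and 1.14, 1.01 and 1.66 CPM in EGFR-WT (0.74, SE 0.38, adjusted p = 0.690; 0.42 without EGFR-DN replicate 3). Ereg and Nrg3, for epiregulin and a neuregulin, were at 0 counts in all 6 libraries, as Areg was. Epgn, for epigen, had 1 count over the EGFR-DN libraries and 9 over the EGFR-WT libraries.

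Per length, the ligand transcripts were led by Nrg4, a neuregulin that binds ERBB4, singled out here after its values were seen. Nrg4 was at 3.51, 4.71 and 6.22 CPM per kb in EGFR-DN and 9.40, 5.06 and 3.67 CPM per kb in EGFR-WT, and the groups overlapped (log2 fold change −0.33, SE 0.38, edgeR adjusted p = 0.749). Its share of the ligand transcripts was 54.8 ± 7.97% in EGFR-DN, against 55.8 ± 7.15% in EGFR-WT (SD, n = 3 each). In EGFR-WT the next were Btc at 1.66 ± 0.517 and Hbegf at 1.60 ± 0.446 CPM per kb, which overlapped each other, and then Nrg2 at 0.617 ± 0.231 CPM per kb. In EGFR-DN they were Nrg2 at 1.13 ± 0.333, Hbegf at 1.09 ± 0.127 and Btc at 0.980 ± 0.213 CPM per kb, and neighbours in that order overlapped. By median transcript length the order turned, with Nrg2 at 2.99 and Hbegf at 1.94 CPM per kb in EGFR-WT, and with Btc at 2.05 and Hbegf at 1.33 CPM per kb in EGFR-DN. The 7 ligand genes whose products bind EGFR summed to 2.53, 2.57 and 2.72 CPM per kb in EGFR-DN, against 4.87, 3.38 and 3.00 CPM per kb in EGFR-WT. This sum was lower in every EGFR-DN library than in any EGFR-WT library, as single genes were in 8.72% of those tested. The sum over all 11 ligand genes overlapped, at 7.42, 8.74 and 9.85 CPM per kb in EGFR-DN and 14.8, 9.39 and 7.39 CPM per kb in EGFR-WT. The share of the EGFR ligands in it also overlapped, at 27.7% to 34.1% in EGFR-DN and 33.0% to 40.6% in EGFR-WT.

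**Figure D3:**
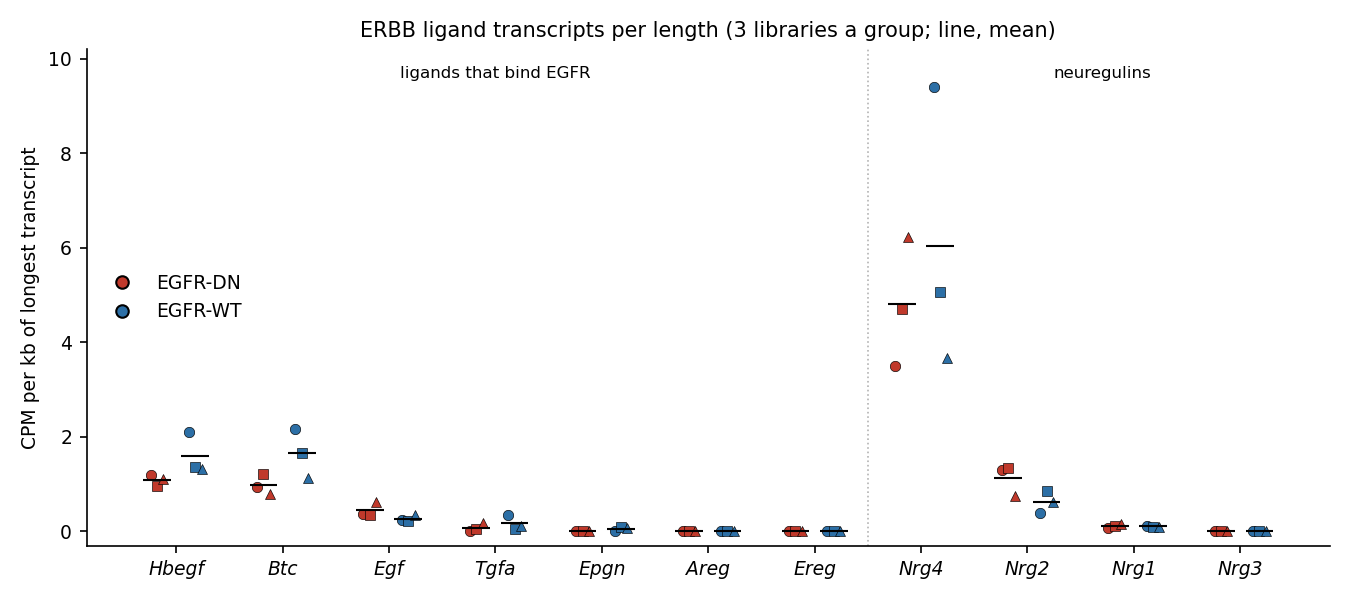
Levels of the 11 ERBB ligand genes in CPM per kb of longest transcript, with the 3 EGFR-DN libraries left of the 3 EGFR-WT libraries for each gene and a line at each mean. Nrg4 is the highest in both groups, and Areg, Ereg and Nrg3 are at 0 in all libraries.

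In EGFR-WT, where the transgene was switched off, Erbb3 followed Nrg4, Btc and Hbegf in level, at 0.919 ± 0.133 CPM per kb (SD, n = 3). Its 3 libraries lay below those of Hbegf and overlapped those of Nrg2. The inhibitor genes came next, with Lrig1 at 0.491 ± 0.0942 and Errfi1 at 0.439 ± 0.0993 CPM per kb, which overlapped each other. Egf, at 0.267 ± 0.0714 CPM per kb, overlapped Errfi1 and lay below Lrig1 in every library. Tgfa at 0.177 ± 0.154 and Nrg1 at 0.106 ± 0.0101 CPM per kb followed. Epgn, Egfr at 0.0192 ± 0.00378, Erbb2 and Erbb4 came last among the genes with counts, each overlapping the next. In EGFR-DN, Egfr led at 9.88 ± 4.38 CPM per kb, overlapping Nrg4 at 4.81 ± 1.36, and Erbb3 came next at 1.45 ± 0.281 CPM per kb. The order rests on the length used: by median transcript length Lrig1 came second in EGFR-WT, at 3.47 CPM per kb, and Erbb3 sixth at 0.919 CPM per kb, while Nrg4 led in EGFR-WT and Egfr in EGFR-DN by either length.

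The inhibitor genes did not pass. Errfi1 had 49, 66 and 32 counts in EGFR-DN and 48, 56 and 25 counts in EGFR-WT, or 1.43, 1.87 and 1.62 CPM against 1.52, 1.49 and 0.986 CPM. The groups overlapped, with a log2 fold change of 0.29 (SE 0.32, 95% interval −0.47 to 1.06, edgeR adjusted p = 0.745). Lrig1 was at 1.14, 1.25 and 3.30 CPM in EGFR-DN and 2.73, 2.66 and 1.89 CPM in EGFR-WT. EGFR-DN replicates 1 and 2 were the lowest of the 6 libraries and replicate 3, the library rich in rRNA-like counts, was the highest. The log2 fold change of Lrig1 was −0.38 (SE 0.47, 95% interval −1.49 to 0.73, edgeR adjusted p = 0.759), and without EGFR-DN replicate 3 it was −1.03 (edgeR unadjusted p = 0.00971, adjusted p = 0.206), in a fit where 13.6% of genes had an unadjusted p under 0.05 and 0.286% passed.

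Among the 10 genes, 7 passed the filter on low counts, and Erbb2, Erbb4 and Areg did not. Egfr was the 1 of the 7 past an adjusted p of 0.05. An unadjusted edgeR p under 0.05 was found for 2 of the 7, Egfr and Erbb3, both higher, against 6.69% of all genes tested (4.30% higher, 2.40% lower). The groups did not overlap for 3 of the 7, Egfr and Erbb3 higher and Hbegf lower, against 17.9% of all genes (9.21% higher, 8.72% lower). Since the transgene is a form of EGFR, Egfr serves as a check of the labels. Without Egfr, 1 of the 6 other genes tested had an unadjusted edgeR p under 0.05, and the groups did not overlap for 2 of the 6. Apart from Egfr, 3 of the 6 tested genes had a log2 fold change above 0 and 3 below, where 51.0% of all genes were above 0. Their median was −0.11, while the median of all genes tested was 0.01. The intervals of these 6 genes do not show equal levels in the groups, since that of Tgfa ran from −3.63 to 1.26 and that of Lrig1 from −1.49 to 0.73.

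The wider pathway was read in 5 lists of 67 genes, of which 62 were tested. None passed by edgeR or by DESeq2, which called 0.775% of the genes it adjusted. With DESeq2 and EGFR-DN replicate 3 left out, 4 of the 62 passed, where 5.29% of all genes did. These were Sh3kbp1 (log2 fold change 0.37, DESeq2 adjusted p = 0.00674), Map2k1 (−0.40, 0.0185) and, named after their values were seen, Timp3 (−0.80, 0.00246) and Ptpn12 (−0.32, 0.00423). In the 6 libraries the smallest edgeR adjusted p was 0.690, and 5 genes or 8.06%, 2 higher and 3 lower, had an unadjusted p under 0.05, near the 6.69% of all genes. The groups did not overlap for 15 genes, 9 higher and 6 lower, or 24.2% against 17.9% of all genes. Their median log2 fold change was 0.12, or −0.04 when EGFR-DN replicate 3 was left out.

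Among 7 tested genes of ligand shedding, the iRhom genes stood on opposite sides of 0. Their products carry the protease ADAM17 to the cell surface and help choose its substrates. Rhbdf1 (iRhom1) was at 3.03, 4.34 and 4.77 CPM in EGFR-DN and 7.02, 5.60 and 5.88 CPM in EGFR-WT (log2 fold change −0.61, SE 0.26, edgeR adjusted p = 0.690). Rhbdf2 (iRhom2) was at 6.59, 7.09 and 8.93 CPM in EGFR-DN and 5.43, 5.09 and 5.28 CPM in EGFR-WT (0.51, SE 0.21, adjusted p = 0.690). The groups did not overlap for either gene, and neither passed. Of the 7 genes, 1 was higher and 2 were lower without overlap, against 17.9% of all genes (9.21% higher, 8.72% lower). Leaving out EGFR-DN replicate 3 gave −0.74 for Rhbdf1 and 0.37 for Rhbdf2. Adam9, another membrane protease and the other lower gene without overlap, was at −0.23 (SE 0.14, edgeR adjusted p = 0.690). The main ligand proteases Adam10 and Adam17, named after their values were seen, averaged 288 and 90.2 CPM in EGFR-DN and 294 and 85.9 CPM in EGFR-WT, with log2 fold changes of −0.03 (SE 0.16) and 0.07 (SE 0.17).

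Among 19 tested genes of other negative regulators, log2 fold changes had a median of 0.14, or −0.07 when EGFR-DN replicate 3 was left out. The groups did not overlap for 1 higher and 2 lower genes of the 19, against 17.9% of all genes (9.21% higher, 8.72% lower). The higher gene was Sh3kbp1. The lower genes, named after their values were seen, were Rnf41 (log2 fold change −0.22) and Ptpn12 (−0.26). Cbl, a ubiquitin ligase that marks EGFR for degradation, was at 75.5, 63.9 and 202 CPM in EGFR-DN and 61.9, 55.3 and 65.7 CPM in EGFR-WT. Its relative Cblb was at 44.8, 35.2 and 130 CPM in EGFR-DN and 32.0, 37.1 and 38.1 CPM in EGFR-WT. Replicate 3 of EGFR-DN was by far the highest for both genes. Their log2 fold changes were 0.90 (SE 0.43) and 0.97 (SE 0.47), neither of which passed (edgeR adjusted p = 0.690 for each), and 0.19 and 0.16 without that library. Sh3kbp1, the gene of the CBL-binding adaptor CIN85, was at 132, 120 and 201 CPM in EGFR-DN and 87.8, 103 and 102 CPM in EGFR-WT, without overlap (0.63, SE 0.23, adjusted p = 0.690; 0.37 without EGFR-DN replicate 3).

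Among 20 adaptors and proximal effectors tested, none passed by edgeR or DESeq2, and 0 had an unadjusted edgeR p under 0.05, against 6.69% of all genes. The groups did not overlap for 5 of the 20, 4 higher and 1 lower, against 17.9% of all genes (9.21% higher, 8.72% lower). Of the 20, the smallest p were for the phosphoinositide 3-kinase subunit genes Pik3r2 (log2 fold change 0.40, SE 0.17) and Pik3cb (0.28, SE 0.15). The adaptor gene Nck1 (−0.30, SE 0.16) came next, and the edgeR adjusted p was 0.690 for each of these genes. Among 12 genes of the RAS-RAF-MEK-ERK cascade tested, Map2k1, the kinase MEK1 that activates ERK, was at 30.6, 31.9 and 21.1 CPM in EGFR-DN and 44.2, 36.9 and 42.5 CPM in EGFR-WT. The groups did not overlap (−0.56, SE 0.19, adjusted p = 0.690), and the log2 fold change was −0.40 without EGFR-DN replicate 3. Mapk3, the kinase ERK1, was at 0.40 (SE 0.21) and the scaffold gene Ksr1 at 0.54 (SE 0.27), and without that replicate they were at 0.14 and 0.18. Of the 12 genes, 3 did not overlap and were higher, Mapk3 and Ksr1 among them, and 1, Map2k1, did not overlap and was lower.

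**Figure D4:**
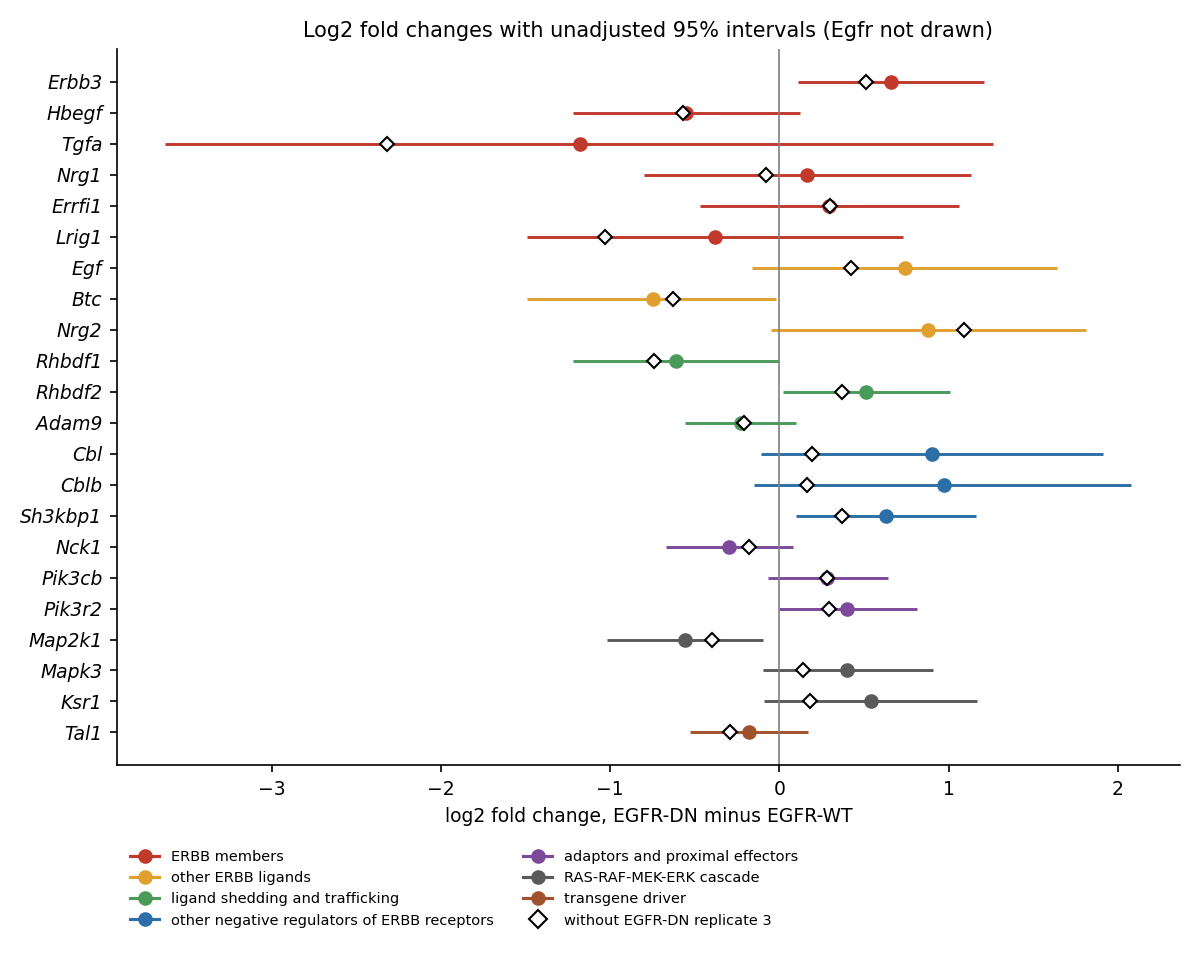
Log2 fold changes (EGFR-DN minus EGFR-WT) of the 6 tested ERBB genes other than Egfr, of the named pathway genes and of Tal1; filled points are from all 6 libraries with unadjusted 95% intervals, and open diamonds leave out EGFR-DN replicate 3. None of the genes drawn passed by edgeR, and without that library Cbl and Cblb are at 0.19 and 0.16.

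The genes whose pattern was most like that of Egfr were ranked over the 6 libraries by Pearson r of log2(CPM + 0.5), among 11125 other genes with a mean of at least 4 CPM. Predicted-gene, clone and identifier symbols were left out of the ranking. The 6 libraries form 2 separate groups, so r reflects the group difference above all, and it is given as a description. The first 5 were Fgd2, an exchange factor for the small GTPase CDC42 (r = 0.997), Gvin3 (r = 0.987), the ERK phosphatase gene Dusp5 (r = 0.982), the ADP-ribosyltransferase gene Parp3 (r = 0.982) and Ly6c2 (r = 0.982), which is also 1 of the 6 monocyte and macrophage markers. Fgd2 was at 52.4, 52.4 and 45.3 CPM in EGFR-DN and 28.2, 28.1 and 29.9 CPM in EGFR-WT. It did not pass by edgeR (log2 fold change 0.80, SE 0.14, adjusted p = 0.590). Without EGFR-DN replicate 3 it was at 0.86 (edgeR adjusted p = 0.0153), in a fit where 0.286% of genes passed. The ranking had already picked these 5 genes largely by the group difference, so their p-values are no further support. Dusp5 was at 7.32, 6.92 and 5.88 CPM in EGFR-DN and 4.19, 3.68 and 3.94 CPM in EGFR-WT (0.77, SE 0.21, edgeR adjusted p = 0.690).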

How the data were processed

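RNA was measured in 6 libraries of sorted mouse marrow cells. Per the labels' protocols, oligo(dT)-primed SMART-Seq V4 cDNA from 10 ng of RNA and Nextera XT were used, with single reads of 75 bases. This chemistry does not mark strand. The values deposited by the authors are estimated counts for each gene symbol, 79.4% of them whole numbers, not scaled between libraries. Named in the submitters' processing notes are the build mm39, DRAGEN, R 4.3.1 and DESeq2 1.40.2. Of annotation and tool roles, nothing is given in the sources used here. Counts were rounded to whole numbers, since the planned design assumed whole counts. There were 0 columns of other samples.

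Genes kept by filterByExpr (19313) were scaled by TMM. The main test was edgeR's two-sided quasi-likelihood test (edgeR 4.0.16, R 4.3.3); p-values were adjusted over all genes by Benjamini-Hochberg and called under 0.05. A positive log2 fold change means higher in EGFR-DN, its SE is its size divided by the square root of F, and 95% intervals are not adjusted for multiple tests. CPM values are TMM-scaled. The alternatives also used limma 3.58.1 and DESeq2 1.42.0. Scripts were tested on simulated data.

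Transcript lengths came from GENCODE M21 (GRCm38). Poisson and Wilson intervals and floors of 3 counts cover counting error only. No library was a duplicate, since between any pair the chi-square per degree of freedom was at least 15.8. Whether libraries are from separate animals is not stated in the labels, so p-values reflect only the spread among these samples, part of which may be technical.

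Named genes were the 10 ERBB genes, Tal1, any list gene past the threshold, the 3 smallest p per pathway list, and the 5 genes most like Egfr. Members and lists were chosen with earlier results of these data known.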

Additional observations from a re-analysis of the deposited data

How the results depend on the processing

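Besides TMM, edgeR and filterByExpr, 20 alternatives were run, 2 of them added after seeing the data. Egfr stayed higher in EGFR-DN in all of them, with a log2 fold change of 8.73 to 9.37 and 8.98 relative to Tal1. Leaving out each replicate gave 8.73 to 9.33. It missed the threshold with limma-voom (8.79, adjusted p = 0.253) and without any 1 EGFR-WT library. The cause was not tested. The 1 gene called became 135 with DESeq2, 0 with limma-voom and 188 with limma-voom and quality weights. Leaving out each replicate gave 0 to 57 genes, with 57 (46 higher, 11 lower) without EGFR-DN replicate 3. With replicate 3 left out, DESeq2 called 870 and limma-voom 71. No other ERBB gene with an adjusted p passed under any of the 20 alternatives. Nrg1 lay between −0.08 and 0.39 when each replicate was left out. It turned to −0.04 with quality weights and, without EGFR-DN replicate 3, to −0.08 by edgeR, −0.07 by DESeq2 and −0.10 by limma-voom. Library size alone moved the median of all genes from 0.01 to −0.10.

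The Egfr share of receptor transcripts was 84.7% in EGFR-DN and 2.04% in EGFR-WT. It was 3.39% in EGFR-WT by raw counts, and 98.7% in EGFR-DN and 22.2% in EGFR-WT by median transcript length, which for Egfr is 716 bases. By that length 19 of 28 levels per kb moved by more than 1 SD, against 0 with library size alone.

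Same-numbered libraries did not deviate together (r = −0.02, 0.04 and 0.07 over 15975 genes), and those with different numbers gave −0.10 to 0.13. A pairing by number was thus not shown, though such values cannot exclude one. With the replicate number as a block Egfr was at 8.96 and 1 gene was called. Erbb2, Erbb4 and Areg, with at most 8 counts in a library, are limited by depth.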
